A study of Mus musculus with 18 samples.

Results

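The genes described here encode the protein kinase mTOR, its partner Raptor, the switch that turns the kinase on, its effectors, and the proteins that hold it back in stressed cells. There were 10 of them: Mtor, Rptor, Rheb, Tsc1, Tsc2, Ddit4, Sesn1, Sesn3, Eif4ebp1 and Rps6kb1. Every probe set whose only gene symbol in the platform annotation was one of these was taken, without regard to its signal. This gave 21 probe sets for 9 of the 10 genes, out of 45137 non-control probe sets and 18194 genes with a symbol of their own. Rps6kb1, the S6 kinase gene, had no such probe set and is not analysed here. Testing was limited to the brightest 60% of probe sets on each chip by mean signal, 27083 in all, which took in 18 of the 21. The other 3, of Tsc1, Mtor and Rptor, lay below that limit, are given by their signals, and take no part in the counts; tests of them come from a separate fit to all 45137 probe sets.

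Signals came from 9 hearts of male mice, 3 in each of 3 groups, each heart being hybridized to both Affymetrix chips 430A and 430B. Every group, the controls included, carried the transgenes Tet-myrAkt1, which encodes an activated Akt1, and αMHC-tTA, a driver that acts in heart muscle cells. The control hearts were taken before AAC, the operation that loads the heart with pressure, at an age label of 8 weeks. The second group was taken 4 weeks after AAC, at an age label of 12 weeks. Its replicate 3 by title carries the number 1 in its description, and is treated here as a heart of its own. The third was taken 6 weeks after AAC with Akt switched on, for 3 weeks by its titles and 2 weeks by its descriptions, also at an age label of 12 weeks. The labels do not say whether a sample was 1 animal or a pool, so p-values measure only the spread between these samples. No group had AAC for 6 weeks without Akt, so Akt and the further time after AAC cannot be told apart. Against the controls, neither can AAC and age in the second group, nor AAC, Akt and age in the third. The labels do not explain why the age is 12 weeks both at 4 and at 6 weeks after AAC.

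The kinase mTOR works in complexes. In mTORC1 it is joined by Raptor, which brings it its substrates, and it promotes protein synthesis and growth by phosphorylating the S6 kinases and the translation repressor 4E-BP1. The small GTPase Rheb turns mTORC1 on, and the TSC1-TSC2 complex turns Rheb off; Akt phosphorylates TSC2 and so releases Rheb. REDD1, the product of Ddit4, and the sestrins act as brakes under hypoxia, lack of amino acids or oxidative stress, and FoxO factors, which Akt keeps out of the nucleus, are known to drive sestrin genes. In the heart this pathway is known for its part in growth of the muscle cells. An array reads mRNA only, not phosphorylation.

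Promoter sequence is shown for Ddit4, Sesn3 and Sesn1, the genes with a probe set that differed between the Akt-on hearts and the control hearts (adjusted p under 0.05, limma). For Sesn1 this was 1 of its 4 probe sets. Each is the 250 bases before the RefSeq start of the gene in GRCm38.p6, written in the direction of transcription. Capitals mark the core letters of a hypoxia response element, ACGTG.
Ddit4, chr10:59951771-59952020, minus strand: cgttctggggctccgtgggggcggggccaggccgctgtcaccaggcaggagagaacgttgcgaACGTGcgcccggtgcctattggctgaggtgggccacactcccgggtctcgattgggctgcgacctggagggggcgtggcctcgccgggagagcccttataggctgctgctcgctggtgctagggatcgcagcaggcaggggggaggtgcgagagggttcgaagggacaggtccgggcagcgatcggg
Sesn3, chr9:14276051-14276300, plus strand: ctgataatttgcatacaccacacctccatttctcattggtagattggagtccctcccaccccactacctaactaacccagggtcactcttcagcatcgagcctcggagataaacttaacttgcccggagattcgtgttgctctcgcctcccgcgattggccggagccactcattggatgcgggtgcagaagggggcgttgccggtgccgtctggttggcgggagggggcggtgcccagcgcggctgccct
Sesn1, first start, chr10:41810324-41810573, plus strand: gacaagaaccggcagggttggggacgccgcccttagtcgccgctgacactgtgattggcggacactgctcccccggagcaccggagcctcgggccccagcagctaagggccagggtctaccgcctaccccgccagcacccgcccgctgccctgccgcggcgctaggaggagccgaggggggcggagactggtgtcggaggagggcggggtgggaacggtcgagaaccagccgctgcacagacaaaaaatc
Sesn1, second start, chr10:41887189-41887438, plus strand: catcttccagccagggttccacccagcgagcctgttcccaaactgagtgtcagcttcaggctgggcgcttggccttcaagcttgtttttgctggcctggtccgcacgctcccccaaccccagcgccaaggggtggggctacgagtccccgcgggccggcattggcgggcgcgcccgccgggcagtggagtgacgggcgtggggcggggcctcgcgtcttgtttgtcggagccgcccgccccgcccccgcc
RefSeq gave 10 windows for 9 of the 10 genes, each of these 250 bases plus 50 bases from the start, and no window for Eif4ebp1. They were searched on both strands for ACGTG, for the E-box CACGTG (which holds ACGTG), for the FoxO core GTAAACA and for the ATF4 core TGATGNAA. ACGTG was found in the windows of Ddit4 (187 to 183 bases before the start), Rptor and Rheb, and in 19.6% of all 32851 windows. CACGTG was found only in the Rheb window of the 10 and in 7.15% of all. GTAAACA was found only after the first Sesn1 start, on the minus strand from base 23 to base 29, and in 3.65% of all windows. TGATGNAA was in none of the 10 windows and in 3.97% of all. A match of letters is a description and not a binding site.

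Before the genes themselves, 4 measurements of the hearts bear on what follows. The Akt1 probe set 1425711_a_at, the check on the transgene, gave signals of 2614, 3762 and 6535 in the Akt-on hearts against 383 to 917 in the other 6. Its log2 difference was 2.36 from the 4-week hearts (SE 0.30, adjusted p = 0.00312, limma) and 2.89 from the control hearts (adjusted p = 0.000433). The other 2 tested Akt1 probe sets did not pass: 1416657_at differed by 0.01 and -0.40, and 1440950_at by -0.02 and 0.08. All 9 genes of a heart muscle marker list passed the filter, as the tissue label calls for. The mean log2 signal of atrial markers ran from 7.56 to 10.94 and was above 10 in 4 hearts (control replicates 2 and 3, 4-week replicate 1 and Akt-on replicate 1), with at least 1 in every group; differences between groups had exact permutation p of 0.5, 0.6 and 0.9. The log2 ratio of the 3′ to the 5′ β-actin probe set on chip 430A, a measure of RNA integrity, was 0.57 to 1.03 in the control hearts, 0.18 to 0.28 at 4 weeks and 0.06 to 0.29 with Akt on. Both later groups lay wholly below the controls (exact permutation p = 0.1, the smallest that 3 against 3 allow). Its part in the comparisons with control hearts was not tested.

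Of the 18 tested probe sets, those of Sesn3 and Ddit4 rose and 1 of Sesn1 fell, all in the Akt-on hearts, while the probe sets of Tsc1, Tsc2, Rptor, Rheb and Eif4ebp1 passed the test in no comparison. A probe set is said to rise, fall or be called where its adjusted p was under 0.05 (limma, Benjamini-Hochberg over all 27083 probe sets). At 4 weeks after AAC against control hearts, 0 rose and 1 fell, an Mtor probe set, so that 5.56% were called against 4.43% of all probe sets (2.75% higher and 1.68% lower). In the Akt-on hearts 2 rose, both of the gene Sesn3, and 1 fell from 4 weeks, 16.7% against 2.54% of all (1.08% higher and 1.46% lower). From control to Akt on 3 rose, 2 of Sesn3 and 1 of Ddit4, and 1 fell, 22.2% against 13.4% of all (6.86% higher and 6.51% lower). The 3 hearts of one group all lay on one side of the other 3 for 7, 11 and 10 of the 18 probe sets in these comparisons, and for 29.3%, 20.6% and 32.1% of all probe sets. The 10 genes were chosen with earlier results of these data known, so these shares are a description.

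The median log2 difference of the 18 was -0.02, -0.10 and -0.25, beside -0.04, 0.02 and -0.01 over all probe sets. Their median size without sign was 0.29, 0.30 and 0.31, beside 0.23, 0.21 and 0.26. At an unadjusted p under 0.05 (limma) stood 7, 9 and 7 of the 18, and 5874, 4617 and 7579 of all 27083 probe sets. The first and second comparisons share the 4-week hearts, the comparisons against control share the control hearts, and those with Akt on share the Akt-on hearts, so the 3 are not independent. Fold changes are on the scale of log2(signal + 32), which understates those of low probe sets. In RNA of heart tissue, fewer cells of a type and less RNA per cell cannot be told apart.

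**Figure D1:**
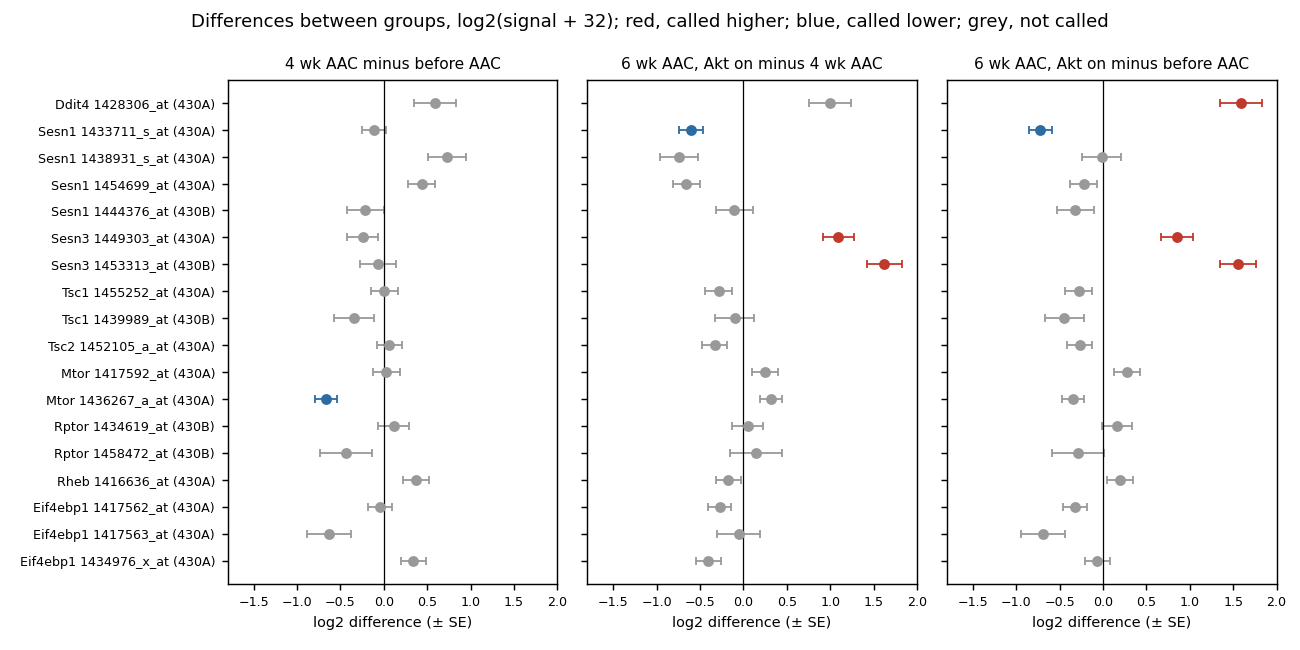
Log2 difference ± SE (x axis, log2 of signal + 32) of the 18 tested probe sets in the 3 comparisons, 3 hearts in each group; red marks a call as higher, blue a call as lower and grey no call. The 2 Sesn3 probe sets lie farthest to the right in the middle panel, at 1.10 and 1.62.

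Sesn3 encodes sestrin 3, a brake on mTORC1 that acts through the GATOR complexes and AMPK. Its probe set 1453313_at on chip 430B read 275, 234 and 203 in the control hearts, 316, 167 and 209 at 4 weeks, and 821, 647 and 815 with Akt on. The control and 4-week hearts overlapped, and every Akt-on heart was above all 6 of them. The log2 difference of the Akt-on hearts was 1.62 from the 4-week hearts (SE 0.20, 3.08-fold, adjusted p = 0.00229) and 1.56 from the control hearts (2.94-fold, adjusted p = 0.00123). Between 4 weeks and control it was -0.07 (SE 0.20, adjusted p = 0.892).

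The other Sesn3 probe set, 1449303_at on chip 430A, gave 388, 267 and 364 before AAC, 354, 238 and 253 at 4 weeks, and 692, 635 and 571 with Akt on. The order of the groups was the same: again the first 6 hearts overlapped and the last 3 stood above them. It rose by 1.10 from 4 weeks (SE 0.18, 2.14-fold, adjusted p = 0.0103) and by 0.85 from control (1.80-fold, adjusted p = 0.0113). Both probe sets stayed called in both comparisons when each of the 9 hearts was left out in turn, with adjusted p up to 0.0491. Without the 4 hearts high in atrial markers, which leaves 1 control heart and 2 in each other group with the spread pooled over them, 1453313_at differed by 1.79 from 4 weeks (adjusted p = 0.0220) and by 1.30 from control (adjusted p = 0.0640). For 1449303_at these values were 1.19 (adjusted p = 0.0534) and 0.60 (adjusted p = 0.217).

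Ddit4 encodes REDD1, which restrains mTORC1 through the TSC complex and is induced by hypoxia and glucocorticoids. Its only probe set, 1428306_at, read 241, 187 and 205 in control hearts, 270, 259 and 519 at 4 weeks, and 559, 680 and 886 with Akt on. No pair of groups overlapped, and 4-week replicate 3 stood far above the other 2 hearts of its group, close to the lowest Akt-on heart. Ddit4 rose by 1.59 from control to Akt on (SE 0.24, 3.01-fold, adjusted p = 0.00251). The difference of the Akt-on hearts from the 4-week hearts, 1.00 (SE 0.24), missed the threshold (adjusted p = 0.0537), as did that of 0.59 between 4 weeks and control (adjusted p = 0.184).

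The Ddit4 difference between Akt on and 4 weeks passed the threshold without 4-week replicate 3, at 1.30 (adjusted p = 0.0181), and without Akt-on replicate 1, at 1.15 (adjusted p = 0.0499). The difference also passed with 4-week replicates 1 and 3 averaged, at 1.08 (adjusted p = 0.0401, limma). It passed under 8 of 25 alternative settings, with adjusted p from 0.0181 to 0.212. The rise from control stayed called without each heart in turn (adjusted p up to 0.0147). Without the 4 hearts high in atrial markers it was 1.57, with an adjusted p of 0.0979.

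Sesn1 encodes sestrin 1, a leucine-sensitive relative of sestrin 3 and a known target of p53 and FoxO. Its probe set 1433711_s_at on chip 430A read 2647, 2581 and 2573 in control hearts, 2292, 2051 and 2933 at 4 weeks, and 1577, 1510 and 1610 with Akt on. The 4-week hearts spread around the controls, and all 3 Akt-on hearts lay below the other 6. It fell by 0.72 from control to Akt on (SE 0.14, 1.65-fold, adjusted p = 0.00635), a call that held without each heart in turn (adjusted p up to 0.0296). It fell by 0.61 from 4 weeks to Akt on (SE 0.14, adjusted p = 0.0407). That second call was lost when any heart but 4-week replicate 2 was left out. The log2 differences were then -0.46 to -0.64, the smallest without 4-week replicate 3, and the adjusted p was 0.0621 to 0.126. The same call was lost with 4-week replicates 1 and 3 averaged (-0.55, adjusted p = 0.0783, limma). Without the 4 hearts high in atrial markers the differences were -0.75 (adjusted p = 0.181) and -0.64 (adjusted p = 0.227).

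The other Sesn1 probe sets did not all repeat this. On chip 430A, 1454699_at, designed on the same sequence accession as 1433711_s_at, read 482, 507 and 584 in control hearts, 682, 624 and 866 at 4 weeks, and 386, 472 and 478 with Akt on. Its 4-week hearts were the highest and its Akt-on hearts the lowest, with no overlap of any pair of groups. Its differences were 0.43 from control to 4 weeks (adjusted p = 0.134) and -0.66 from 4 weeks to Akt on (adjusted p = 0.0514). From control to Akt on, where 1433711_s_at was called, it differed by -0.22 (SE 0.16, adjusted p = 0.40).

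The Sesn1 probe set 1438931_s_at read 175, 239 and 255 in control hearts, 467, 292 and 421 at 4 weeks, and 160, 259 and 247 with Akt on. The 4-week hearts stood above both other groups, which overlapped each other. Its differences were 0.73 to 4 weeks (SE 0.22, adjusted p = 0.0823), -0.74 from 4 weeks to Akt on (adjusted p = 0.106) and -0.01 from control to Akt on. On chip 430B, 1444376_at read 62 to 123 over all 9 hearts, and its groups overlapped in every comparison. So the 3 probe sets on chip 430A were each lower in every Akt-on heart than in every 4-week heart, 1 of them past the test. Against control hearts 1 fell and 3 were not called. The mean of the 3 probe sets on chip 430A differed by -0.32 from control (adjusted p = 0.170, limma) and by -0.67 from 4 weeks (adjusted p = 0.0275, limma). The suffix "_s_at" marks probes that match more than 1 transcript sequence.

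**Figure D2:**
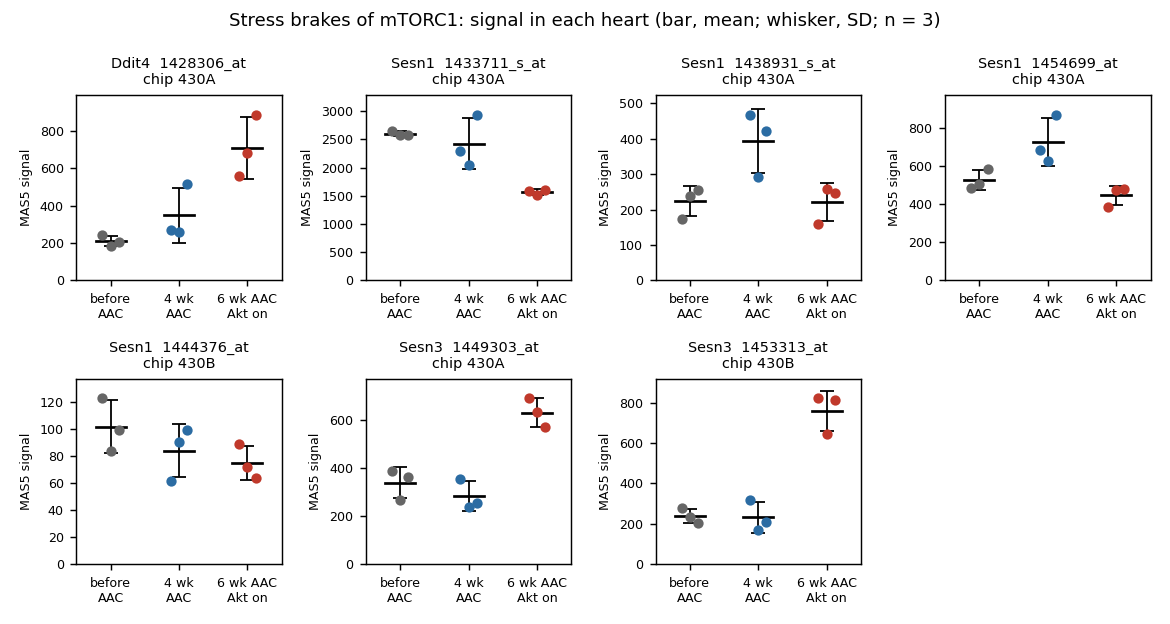
MAS5 signal (y axis, linear, from 0; each panel has its own scale) of the Ddit4, Sesn1 and Sesn3 probe sets in each of 3 hearts per group (points), with the group mean (bar) and SD (whisker). The Akt-on hearts stand above the other 6 for Ddit4 and for both Sesn3 probe sets, and below them for Sesn1 1433711_s_at.

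Tsc1 and Tsc2 encode hamartin and tuberin, the complex that switches Rheb off. Tsc2 1452105_a_at read 1165, 997 and 1243 in control hearts, 1133, 1343 and 1080 at 4 weeks, and 1001, 821 and 985 with Akt on. The Akt-on hearts lay below the 4-week hearts but overlapped the controls, and the differences of -0.33 (SE 0.14, adjusted p = 0.267) and -0.27 (adjusted p = 0.249) missed the threshold. Tsc1 1455252_at read 295, 312 and 354 in control hearts, 356, 284 and 328 at 4 weeks, and 282, 227 and 268 with Akt on. For this probe set every Akt-on heart was below the other 6, with differences of -0.28 from either group (SE 0.15, adjusted p = 0.377 from 4 weeks and 0.266 from control). Tsc1 1439989_at read 47 to 87 with Akt on, 58 to 95 at 4 weeks and 94 to 101 before AAC, and its largest difference was -0.45 from control (SE 0.23, adjusted p = 0.225).

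The Tsc1 probe set below the filter, 1422043_at, read 154, 137 and 105 in control hearts, 125, 123 and 105 at 4 weeks, and 67, 69 and 72 with Akt on. Its Akt-on hearts agreed closely and lay below the other 6. When all 45137 probe sets were tested it differed by -0.68 from control (SE 0.20, adjusted p = 0.0714) and by -0.56 from 4 weeks (adjusted p = 0.246).

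Rheb, the GTPase that turns mTORC1 on, read 1852, 1967 and 2249 in control hearts, 2283, 2599 and 3031 at 4 weeks, and 2179, 2729 and 2100 with Akt on. The 4-week hearts were all above the controls, by 0.37 (SE 0.15, adjusted p = 0.167), and the Akt-on hearts overlapped both. From 4 weeks to Akt on it differed by -0.17 and from control by 0.20, with adjusted p of 0.609 and 0.420.

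Mtor encodes the kinase itself, and of its 2 tested probe sets 1 was called, in 1 comparison. The probe set 1436267_a_at read 494, 473 and 509 in control hearts, 302, 291 and 302 at 4 weeks, and 385, 362 and 397 with Akt on. The hearts of each group lay close to each other, the 4-week hearts being lowest and the Akt-on hearts between. It fell by 0.66 from control to 4 weeks (SE 0.13, 1.58-fold, adjusted p = 0.0194). Its differences of 0.32 from 4 weeks to Akt on (adjusted p = 0.217) and -0.34 from control to Akt on (adjusted p = 0.0992) were not called.

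The fall of Mtor 1436267_a_at at 4 weeks lost its call without any 1 of the 3 control hearts or without 4-week replicate 1 or 2, with log2 differences of -0.64 to -0.69 and adjusted p of 0.0556 to 0.0807. It was -0.68 without the 4 hearts high in atrial markers (adjusted p = 0.331). The other tested Mtor probe set 1417592_at read 735, 698 and 878 in control hearts, 789, 726 and 839 at 4 weeks, and 1057, 778 and 996 with Akt on. All 3 groups overlapped, and its differences were 0.03, 0.25 and 0.28 in the 3 comparisons, with adjusted p from 0.260 to 0.935. The Mtor probe set below the filter, 1446185_at, read 47, 23 and 52 in control hearts, 19, 22 and 25 at 4 weeks, and 46, 47 and 30 with Akt on. Its mean was lowest at 4 weeks, as for 1436267_a_at, and its 4-week hearts overlapped the controls. Tested with all 45137 probe sets it differed by -0.41 from control to 4 weeks (SE 0.23, adjusted p = 0.410), by 0.43 from 4 weeks to Akt on (adjusted p = 0.455) and by 0.03 from control to Akt on.

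Rptor encodes Raptor. Its probe set 1434619_at read 982, 847 and 827 in control hearts, 952, 854 and 1075 at 4 weeks, and 750, 1249 and 1036 with Akt on. The groups overlapped throughout, the Akt-on hearts spreading widest, and the differences were 0.05 to 0.16 with adjusted p of 0.610 or more. Rptor 1458472_at read 31 to 101, with overlapping groups and no call.

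Eif4ebp1 encodes 4E-BP1, which binds the cap-binding protein eIF4E and blocks translation until mTORC1 phosphorylates it. Its probe set 1417562_at read 2267, 1613 and 2049 in control hearts, 1794, 1906 and 1986 at 4 weeks, and 1577, 1542 and 1564 with Akt on. The Akt-on hearts lay close together below all the others, by 0.32 from control (SE 0.14, adjusted p = 0.147) and 0.27 from 4 weeks (adjusted p = 0.336), and were not called. Eif4ebp1 1434976_x_at read 1614, 1388 and 1523 in control hearts, 1777, 1674 and 2366 at 4 weeks, and 1501, 1434 and 1387 with Akt on. There the 4-week hearts were highest, by 0.34 over control (adjusted p = 0.193), with a difference of -0.40 from 4 weeks to Akt on (adjusted p = 0.173).

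Eif4ebp1 1417563_at read 309, 343 and 440 in control hearts, 184, 216 and 270 at 4 weeks, and 306, 228 and 132 with Akt on. Both later groups were below the controls, by 0.63 at 4 weeks (SE 0.25, adjusted p = 0.166) and 0.69 with Akt on (adjusted p = 0.0925). Thus 2 of the 3 Eif4ebp1 probe sets put the 4-week hearts below the controls on average and 1 put them above, with no call. Without Akt-on replicate 1, the highest of its group, the difference of 1417563_at from control passed the threshold (adjusted p = 0.0264).

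**Figure D3:**
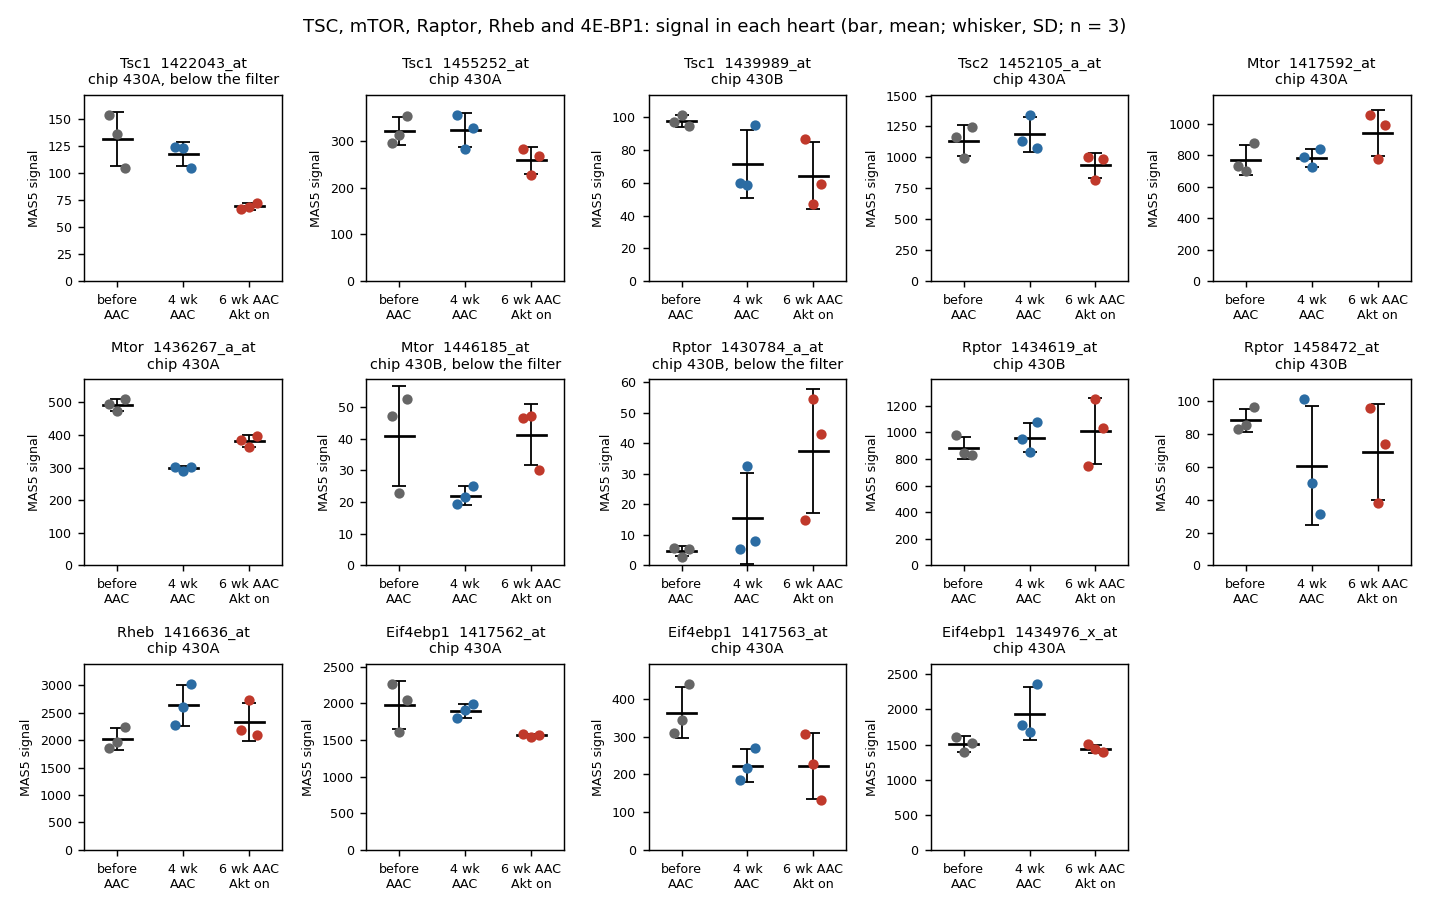
MAS5 signal (y axis, linear, from 0; each panel has its own scale) of the Tsc1, Tsc2, Mtor, Rptor, Rheb and Eif4ebp1 probe sets in each of 3 hearts per group (points), with the group mean (bar) and SD (whisker); the 3 panels so marked lay below the filter. Mtor 1436267_a_at is lowest at 4 weeks, at 291 to 302, and is the only one of these with a call.

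For each gene with a call, the 2 most similar probe sets of other genes on its chip were found by Pearson's r of log2 signal over the 9 hearts, which share their group differences and arrays; r is a description. Ddit4 ran most like Pgam1, a glycolytic enzyme (r = 0.97), and Nme1, a nucleoside diphosphate kinase (r = 0.96), out of 12352 probe sets compared. Pgam1 read 665 to 767 in control hearts, 896 to 1088 at 4 weeks and 1137 to 1407 with Akt on. Sesn1 1433711_s_at ran most like Fbxo32, the ubiquitin ligase atrogin-1 of muscle atrophy (r = 0.98), and Cpeb3, a regulator of mRNA translation (r = 0.98). Fbxo32 read 724 to 769 in control hearts, 508 to 778 at 4 weeks and 317 to 361 with Akt on. Sesn3 1453313_at ran most like Dzip3 (r = 0.96) and Ttll12 (r = 0.95), and Mtor 1436267_a_at most like Sox4 and Trmt10a (both r = 0.98). Sox4, a transcription factor gene, read 730 to 916 in control hearts, 145 to 204 at 4 weeks and 290 to 408 with Akt on.

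The wider pathway was covered by a list of 71 other genes, of which 67 had a probe set and 65, with 135 probe sets, passed the filter. At 4 weeks against control 9 of the 135 rose and 1 fell, 7.41% called. Between 4 weeks and Akt on 1 rose and 6 fell, 5.19%. Between control and Akt on 16 rose and 12 fell, 20.7%, in 21 genes. The shares over all probe sets were 4.43%, 2.54% and 13.4%, as given above, and the median log2 differences of the list were 0.07, -0.06 and 0.03. By part of the list, the shares called were 8.33%, 4.17% and 14.6% for amino acid sensing (48 probe sets). They were 12.5%, 12.5% and 31.2% for AMPK and LKB1 (16) and 5%, 0% and 20% for partners of mTOR (20). They were 3.7%, 3.7% and 25.9% for translation (27) and 9.09%, 9.09% and 18.2% for autophagy (11). Other mTORC1 substrates (7) had 14.3%, 14.3% and 42.9%. The 4 probe sets of the TSC and Rheb axis and the 2 of stress brakes had no call. The values below are of the probe set of a gene with the smallest p in that comparison.

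Among proteins that sense amino acids at the lysosome, Flcn and Fnip2 fell in the Akt-on hearts. Flcn encodes folliculin and Fnip2 its partner, which together act on the Rag GTPases. Flcn 1423663_at read 594 to 610 in control hearts, 606 to 863 at 4 weeks and 281 to 364 with Akt on, a fall of 1.07 from 4 weeks (SE 0.16, adjusted p = 0.00495) and of 0.81 from control (adjusted p = 0.00719). Fnip2 read 302 to 357, 381 to 429 and 201 to 226 in the same order, a fall of 0.86 from 4 weeks (SE 0.14, adjusted p = 0.00779) and of 0.60 from control (adjusted p = 0.0157). The Akt-on hearts were below all 6 others for both. The other tested Flcn probe set differed by -1.08 from 4 weeks and by -0.18 from control without a call. Fnip1, the other folliculin partner, had no call at any of its 3 tested probe sets, which differed by -0.43 to -0.002 from 4 weeks (adjusted p of 0.420 or more) and by -0.49 to 0.01 from control (adjusted p of 0.127 or more).

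Of the 48 probe sets for amino acid sensing, 8.33% were called at 4 weeks, against 4.43% of all probe sets. Of the 26 tested genes, 3 rose there: Sar1b (0.79, adjusted p = 0.0175), Castor2 1451589_at (0.90, adjusted p = 0.0478) and Lamtor5, a subunit of the Ragulator scaffold (0.62, adjusted p = 0.0486). Lamtor5 rose at 2 of 3 measurements there; the same probe set, 1415759_a_at, called on chip 430B, differed by 0.11 on chip 430A (adjusted p = 0.650). Against control the Akt-on hearts had 5 genes higher and 2 lower, 14.6% of the 48 probe sets of these genes, near the 13.4% of all probe sets. Castor2 1437252_at read 230 to 263 in control hearts and 494 to 748 with Akt on (1.21, SE 0.23, adjusted p = 0.00603); the other 2 Castor2 probe sets were not called there. The others higher were Sar1b (0.62), Lamtor5 (0.61), Sec13 (0.52) and Depdc5, a subunit of the GATOR1 brake (0.84), with adjusted p of 0.0168 to 0.0388. Lamtor5 was called at 1 of 3 measurements there (0.11 for its probe set on chip 430A) and Depdc5 at 1 of 4, the others being at -0.23, -0.15 and 0.14. From 4 weeks to Akt on, Castor2 1437252_at differed by 0.84 (adjusted p = 0.0777) and Rragd, a Rag GTPase gene, by -0.63 (adjusted p = 0.107).

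AMPK, the kinase that senses low energy, and LKB1, which activates it, restrain mTORC1. At 4 weeks Cab39, an LKB1 partner, rose by 0.87 (SE 0.15, adjusted p = 0.0147) and Prkaa2, a catalytic subunit of AMPK, by 0.64 (adjusted p = 0.0274), each at 1 probe set. The other Cab39 probe set differed by 0.14 (adjusted p = 0.656), and the other 2 of Prkaa2 by 0.06 and 0.10 (adjusted p = 0.884 and 0.810). The same 2 probe sets were lower with Akt on than at 4 weeks: Cab39 fell by 0.80 (adjusted p = 0.0187) and Prkaa2 by 0.59 (adjusted p = 0.0447), while the others differed by -0.49 for Cab39 and by -0.26 and -0.47 for Prkaa2 without a call. Cab39 1418432_at read 217 to 284 in control hearts, 450 to 527 at 4 weeks and 245 to 286 with Akt on, so its control and Akt-on hearts overlapped. Against control, Akt-on hearts had lower Stk11, the LKB1 gene (-0.70, adjusted p = 0.00702), and higher Prkag2 (0.89, adjusted p = 0.0107) and Prkab2 (1.08, adjusted p = 0.0227), which encode other AMPK subunits. From 4 weeks to Akt on the Prkab2 probe set with the smallest p differed by 0.67 (adjusted p = 0.117). Sesn2 and Ddit4l, the close relatives of the brakes above, were called in no comparison, with 0, 1 and 1 of these 2 genes at an unadjusted p under 0.05 (limma). The counts over all probe sets at that p are given above.

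Inside the complexes, Akt1s1 encodes PRAS40, an inhibitor of mTORC1 that Akt phosphorylates, and Deptor encodes another inhibitor of mTOR. Akt1s1 1452684_at read 131 to 192 in control hearts, 313 to 417 at 4 weeks and 293 to 380 with Akt on. It rose by 0.96 at 4 weeks (SE 0.18, adjusted p = 0.0167). From control to Akt on, Akt1s1 1428158_at rose by 1.00 (SE 0.20, adjusted p = 0.00703) and 1452684_at by 0.85 (adjusted p = 0.00954), while the other Akt1s1 probe set differed by 0.21. Deptor 1453571_at read 473 to 499 in control hearts, 278 to 458 at 4 weeks and 257 to 261 with Akt on, a fall of 0.84 from control (SE 0.18, adjusted p = 0.0104). A second Deptor probe set fell by 0.50 (adjusted p = 0.0484) and the other 2 were not called. The remaining 7 tested genes of this group had no call in any comparison; nor had Tbc1d7, the third subunit of the TSC complex, or Rhebl1.

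Among genes of translation downstream of mTORC1, Eif4e, the cap-binding factor that 4E-BP1 holds, rose by 0.53 at 4 weeks (SE 0.13, adjusted p = 0.0432) and by 0.47 with Akt on against control (adjusted p = 0.0366), at 1 of its 4 probe sets; the other 3 differed by 0.19 to 0.29 and by 0.01 to 0.47. Eif4a1, the helicase of the same complex, rose by 0.78 with Akt on against control (adjusted p = 0.0109), with a difference of 0.63 at 4 weeks (adjusted p = 0.0526); its other 2 probe sets differed by 0.21 and 0.05 from control to Akt on. Eif4b, an S6 kinase substrate, fell by 0.51 from 4 weeks to Akt on (adjusted p = 0.0360) and by 0.46 from control (adjusted p = 0.0186). Larp1, which binds mRNAs of ribosomal proteins, fell by 0.59 from control (adjusted p = 0.00811).

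Poldip3, which encodes the S6 kinase partner SKAR, fell by 1.32 with Akt on against control at 1437837_x_at (SE 0.22, adjusted p = 0.00396) and by 0.77 at 1437335_x_at (adjusted p = 0.0173). Its other 4 probe sets had no call there, with differences of -0.58 to 0.16. At 4 weeks 1437335_x_at differed by -0.66 (adjusted p = 0.0613), and from 4 weeks to Akt on 1437837_x_at differed by -0.78 (adjusted p = 0.0940). Maf1 encodes the repressor of RNA polymerase III that mTORC1 phosphorylates. It fell at both its probe sets with Akt on against control, by 0.87 (SE 0.13, adjusted p = 0.00227) and 0.79 (adjusted p = 0.00227). From 4 weeks to Akt on Maf1 1451126_at differed by -0.45 (adjusted p = 0.0667).

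Grb10, an adaptor that mTORC1 phosphorylates and that damps insulin signalling, was called at different probe sets in different comparisons. At 4 weeks 1430164_a_at fell by 0.80 (SE 0.18, adjusted p = 0.0341, limma), its 3 probe sets differing by -0.80 to 0.145. From 4 weeks to Akt on all 3 differed by 0.57 to 0.75, and 1425458_a_at was called (0.75, adjusted p = 0.0420). From control to Akt on 1425458_a_at rose by 0.74 (adjusted p = 0.0154), the 3 probe sets differing by -0.23 to 0.80. Among autophagy genes that mTORC1 holds in check, Ulk2 rose by 0.57 at 4 weeks (adjusted p = 0.0423) at 1 of 4 probe sets, the others differing by -0.37, -0.06 and 0.30. Rb1cc1, which encodes the ULK partner FIP200, fell by 0.84 from 4 weeks to Akt on (SE 0.16, adjusted p = 0.0215), after a difference of 0.62 at 4 weeks (adjusted p = 0.0504). Between control and Akt on, Atg13 rose by 0.75 (adjusted p = 0.0220) and Ulk1 by 1.25 (SE 0.34, adjusted p = 0.0301). Ulk1 read 88, 144 and 227 in control hearts and 209, 427 and 631 with Akt on, so that its groups overlapped. Each was called at 1 probe set: the other 2 of Atg13 differed by 0.03 and 0.05, and the other of Ulk1 by -0.15.

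**Figure D4:**
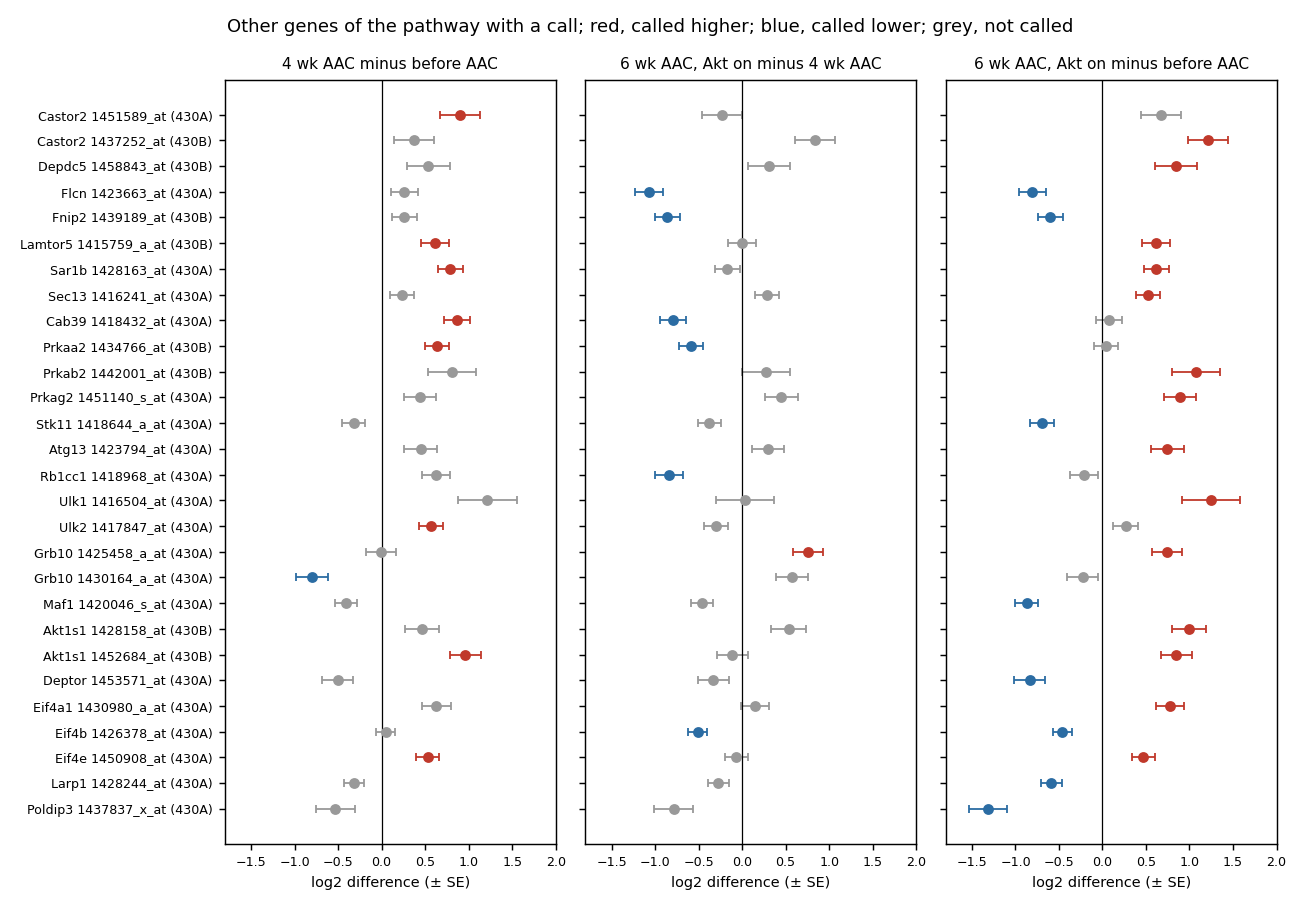
Log2 difference ± SE (x axis, log2 of signal + 32) in the 3 comparisons for the pathway probe sets outside the 10 genes that were named with a call, 3 hearts in each group; red marks a call as higher, blue a call as lower and grey no call. Flcn and Fnip2 lie farthest left in the middle panel, at -1.07 and -0.86.

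How far these pathway calls rest on single hearts differed between the comparisons. Without control replicate 2, control replicate 3 or 4-week replicate 2, none of the 9 genes called at 4 weeks was still called, and their adjusted p ran up to 0.156. From 4 weeks to Akt on, Flcn and Fnip2 stayed called without each heart in turn. Only they were left of the 7 genes without 4-week replicate 2, 4-week replicate 3 or Akt-on replicate 2, while each of the other hearts left 4 to 6. Of the 21 genes called between control and Akt on, 9 stayed called without each heart: Maf1, Poldip3, Castor2, Stk11, Akt1s1, Flcn, Larp1, Deptor and Prkag2. Without control replicate 2 or 3, or Akt-on replicate 2 or 3, 11 or 12 of the 21 were left, and 19 or 20 without control replicate 1 or 4-week replicate 2. Without the 4 hearts high in atrial markers none of the 9, 7 and 21 was called, and of all 27083 probe sets 5, 100 and 245 were.

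Markers of other cells also moved in the comparison of Akt-on with control hearts. Of 11 endothelial probe sets 0 rose and 7 fell, and their summed signal was 16790 to 17400 in control hearts, 11890 to 14190 at 4 weeks and 10550 to 11590 with Akt on. Of 15 fibroblast probe sets 5 rose, against control and also against 4 weeks, with sums of 36120 to 40760, 27080 to 42020 and 39490 to 61460. Of 17 heart muscle probe sets 1 rose and 6 fell against control, with sums of 350500 to 394500, 291700 to 309400 and 255300 to 333500. Of 5 adipocyte probe sets 3 fell, with sums of 13920 to 15590, 11350 to 15960 and 9672 to 10580, and of 12 atrial probe sets 1 rose. Of 10 smooth muscle and pericyte probe sets 1 fell. No macrophage, lymphocyte, erythroid or skeletal muscle probe set was called in this comparison. Few genes of some lists passed the filter: 3 of 7 for lymphocytes, 2 of 5 for adipocytes, 1 of 3 for erythroid cells and 1 of 6 for skeletal muscle. The part of the cell markers in the results for the mTOR genes was not tested.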

How the data were processed

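Heart RNA of 9 samples was hybridized to Affymetrix chips 430A and 430B (18 arrays). Per the labels, the authors made the values with MAS5, whose version is not given in the sources used here. The deposited unit is intensity, the linear MAS5 signal of a probe set, and no detection calls were used here. The deposited intensities had a trimmed mean (2% off each end) of 500.2 on chip 430A and 122.5 on chip 430B, so the pseudocount of 32 weighs more on chip 430B.

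Each array was brought to its chip's mean trimmed mean, and log2(signal + 32) was computed. Of 45265 probe sets 128 controls were left out, and the 60% with the highest mean signal on each chip (at least 127.3 and 47.3) were tested. R 4.3.3 and limma 3.58.1 (lmFit, then eBayes with a variance trend) fitted 3 group means per chip to all 9 hearts, and p-values were adjusted by Benjamini-Hochberg over both chips. The number of arrays limits the precision; the median SE of a log2 difference was 0.20. The fit was also run on simulated data with independent noise for each probe set and heart. That noise held no differences shared across probe sets, such as those in atrial markers, so the run does not bear on them.

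Symbols came from the platform annotation, where 35041 probe sets had 1 symbol, 936 several and 9160 none. All probe sets of the 10 genes are given. Of the list of pathway genes, those with a call were named, and beyond these the ones with the smallest p up to 12 genes in a comparison. The 10 genes, the pathway and marker lists and the tests were chosen with earlier results of these data known. Alternatives covered scaling, pseudocount, filter, probe sets per gene, model, adjustment and left-out hearts. Promoter windows came from RefSeq (GRCm38.p6).

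Replicate numbers did not pair the hearts: the correlation of same-numbered hearts' deviations was -0.24 to 0.14 over 18 pairs.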

Additional observations from a re-analysis of the deposited data

Results flagged for a closer look

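The Rptor probe set 1430784_a_at lay below the signal filter and so took no part in the comparisons. It was picked by a rule for probe sets below the filter: all 3 hearts of a later group above all 3 control hearts. Here the later group was the Akt-on hearts, with a mean of 37.4. It read 5.78, 2.84 and 5.29 in control hearts, 5.49, 32.5 and 8.11 at 4 weeks, and 15.0, 54.3 and 43.0 with Akt on. That the Akt-on hearts were above the controls is thus the rule itself. Among tested probe sets, 32.1% had no overlap of these groups in either direction. The 4-week hearts overlapped both groups. All signals but 54.3 were below 47.3, the lowest mean signal tested on chip 430B, and no detection calls were used. When all 45137 probe sets were tested with limma, its log2 difference between Akt-on and control hearts was 0.88 (SE 0.25, adjusted p = 0.0629). This test uses the values by which the probe set was picked. The other 2 Rptor probe sets differed by 0.16 and -0.29 in that comparison, without a call.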

How the results depend on the processing

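No difference of the 18 probe sets or of the named pathway genes that was called changed sign under any alternative run. At 4 weeks against control the count of called probe sets, 1, was 0 with 1 probe set per gene, 0 with the mean of a gene's probe sets and 0 without the 4 hearts high in atrial markers, where 2, 4 and 4 stood at an unadjusted p under 0.05 (limma); leaving out each heart in turn gave 0 to 1. With Akt on against 4 weeks the count of 3 was 5 with the 40% brightest probe sets, 5 with p adjusted within each chip and 1 without those 4 hearts. With Akt on against control the count of 4 was 2 genes with the mean of a gene's probe sets and 0 without those 4 hearts, with 5 at an unadjusted p under 0.05. Of all 12835 genes, 2981 with 1 probe set per gene and 3040 with the mean stood at an unadjusted p under 0.05 at 4 weeks (limma). With replicate number as a replicate block the counts of called probe sets were 1, 2 and 4. The labels do not say whether the numbers pair these hearts. Of 18 pairs of same-numbered hearts 2 correlated best with their own number, replicate 1 of the 4-week and Akt-on hearts on each chip. With the atrial score as a covariate the counts were 1, 4 and 4. The shares of all probe sets called moved as well. At 4 weeks they were 5.15% with 1 probe set per gene and 5.45% with the mean. With Akt on against 4 weeks they were 3.92% with the 40% brightest and 2.95% with p adjusted within each chip. With Akt on against control the mean of a gene's probe sets gave 14.8%, with Ddit4 and Sesn3 called and Sesn1 not. The covariate gave 3.59%, 2.83% and 14.8%, and the replicate block 2.07%, 1.59% and 11.1%. The loss without the 4 hearts leaves 1 control heart, assumed to vary like the others; the differences of the called probe sets kept their direction. The 3 hearts in a group and dim probe sets on chip 430B limit what can be seen. Each comparison with control hearts also differs in the 3′ to 5′ ratio of β-actin on chip 430A. On chip 430B this ratio was 0.54 to 0.89 in control hearts and 0.15 to 0.34 with Akt on. At 4 weeks it was 0.21 to 0.60 there, overlapping the controls. The log2 ratio of Gapdh on chip 430B was -0.07 to 0.20 in control hearts, -0.23 to -0.12 at 4 weeks and -0.37 to -0.10 with Akt on. On chip 430A the Gapdh ratio was 0.10 to 0.40, -0.27 to -0.17 and -0.31 to -0.105 in that order. By Gapdh both later groups thus lay below the controls on both chips.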
